A study of Mus musculus with 4 samples.

Results

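The 39 genes described here encode collagens and the glycoproteins, proteoglycans and cross-linking enzymes that surround them in the extracellular matrix. They were taken from a list of symbols, matched through the Ensembl identifier of each row to GENCODE release M21 on GRCm38, and all 39 were found among the 54146 genes listed and passed the filter on low counts. TAMs, the macrophages that infiltrate a tumor, were sorted as live CD11b+ F4/80+ cells after a CD45 bead enrichment from tumors of MCA205 fibrosarcoma, a mouse connective tissue cancer line grown under the skin of the flank. The control group comprised 2 libraries labelled vehicle and the propranolol group comprised 2 libraries from mice whose drinking water contained 0.5 g/L of the nonselective beta-adrenergic receptor blocker propranolol from the day of inoculation. All animals were C57BL/6 females, aged from 8 to 16 weeks, that carried MCA205 tumors, and no engineered allele is named. The study describes the libraries of a group as biological replicates, but they are not tied to single mice, and p-values measure the spread between these libraries only. Total depth was 13798249 and 23018142 counts for control replicates 1 and 2, and 39818103 and 16424081 counts for propranolol replicates 1 and 2.

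Collagens are built from chains that wind into a triple helix. Fibrillar collagens give tissues their tensile strength, fibril-associated and beaded collagens decorate the fibrils, and network-forming collagens together with laminins, nidogens and perlecan make the basement membrane under vessels and epithelia. In most tissues fibroblasts, pericytes and smooth muscle cells produce the bulk of this matrix, while macrophages are better known for taking up and degrading collagen and for secreting fibronectin and thrombospondin 1. In bulk RNA of a sorted population, fewer cells of a type and less RNA per cell cannot be told apart.

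The libraries carried the transcripts of macrophages. All 12 macrophage markers passed the filter, and their summed level was 22698, 21939, 28129 and 25478 CPM in control replicates 1 and 2 and propranolol replicates 1 and 2, where CPM is a gene's count scaled to a common library size after TMM normalization. Lyz2, the lysozyme gene of myeloid cells, was the most abundant of them per length. Among the 12, Csf1r (log2 fold change 0.59) and Cd14 (0.68) were higher in the propranolol libraries, against 12.2% of all tested genes. Ptprc (-0.74) was lower, against 15.6%, and the other 9 did not pass. The members together took 0.931%, 0.523%, 0.631% and 0.646% of the counts in the same order of libraries, so the matrix transcripts were a small part of each library, and the largest part in control replicate 1.

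Control replicate 1 stood apart from control replicate 2 in these genes. The level was higher in control replicate 1 for 38 of the 39 members, the exception being Col14a1, with a median difference of 1.39 on the log2 CPM scale. The difference was more than 2-fold for 32 members, against 503 (3.42%) of the 14688 tested genes, and the median difference over all tested genes was 0.0025. The propranolol libraries lay close together, with a median difference of -0.09 over the members and of 0.03 over all tested genes. Of the 39 members, 2 (Col11a1 and Col4a5) were more than 2-fold apart, against 999 of the 14688 tested genes. The log2 fold changes of the members below are therefore given with all 4 libraries and also without control replicate 1, where control replicate 2 alone was assumed to vary like the propranolol libraries.

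**Figure D1:**
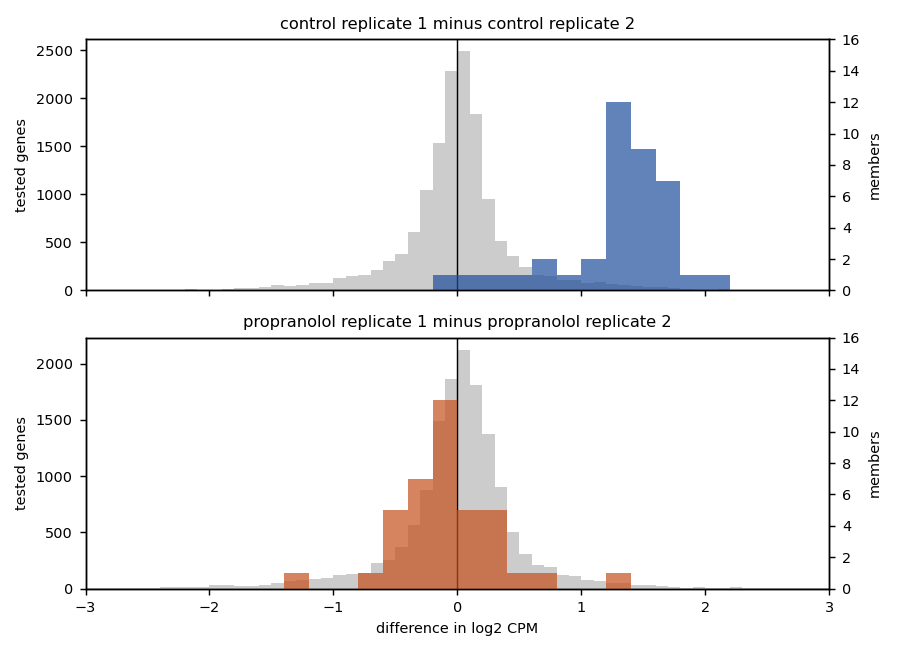
Difference in log2 CPM between the replicates of a group, control in the upper panel and propranolol in the lower panel. Gray bars count all 14688 tested genes (left axis) and colored bars count the 39 matrix genes (right axis). The matrix genes sit around a median of 1.39 in the control panel and around -0.09 in the propranolol panel.

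Markers of other cell types were measured in the same libraries. The 16 fibroblast or mesenchymal markers summed to 343 and 223 CPM in control replicates 1 and 2, and to 169 and 131 CPM under propranolol. Among the 12 of them that were tested, 8 were lower in the propranolol libraries (against 15.6% of all tested genes) and 1, Pi16, was higher (against 12.2%). With control replicate 1 left out, 4 were lower (against 10.4% of the genes tested then) and 1 was higher (against 12.4%). Pdgfra, a receptor that marks fibroblasts, stood at 58.5 and 23.4 CPM in the control libraries and at 9.08 and 12.2 CPM in the propranolol libraries. Pdpn, the most abundant of the list per length over the 4 libraries, did not pass the test, and the transcription factor gene Tcf21 had 0 counts in every library. The summed level without Thy1, which T cells also express, was 260, 137, 123 and 105 CPM.

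The 10 pericyte or smooth muscle markers, all of them tested, summed to 106 CPM in control replicate 1 and to between 49.7 and 55.8 CPM in the other libraries, with 2 (Rgs5 and Abcc9) lower, against 15.6% of all tested genes, and Acta2 the most abundant per length. With control replicate 1 left out, 1 was lower and 1 higher, against 10.4% and 12.4%. The 12 endothelial markers summed to 58.7, 52.4, 67.3 and 68.6 CPM, with Cdh5 higher among the 10 tested, against 12.2% of all tested genes (2 of 11 without control replicate 1, against 12.4%), and Pecam1 the most abundant per length. Platelet markers, of which 5 of 10 were tested, summed to 161, 147, 293 and 267 CPM, nearly all of it Pf4, with Pf4 and Ppbp higher (against 12.2%) and Gp1bb at 0 in every library. Neutrophil markers summed to 180, 198, 355 and 381 CPM, with 5 of the 7 tested genes higher (against 12.2%) and S100a9 the most abundant per length. T or NK cell markers summed to 260, 299, 118 and 67.6 CPM, with 9 of 10 lower (against 15.6%) and Nkg7 the most abundant per length. The fibroblast and pericyte lists were thus the ones that, like the members, were highest in control replicate 1. What part any of these cells had in the levels of the matrix genes was not tested, and no list of transcripts particular to MCA205 cells was used.

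**Figure D2:**
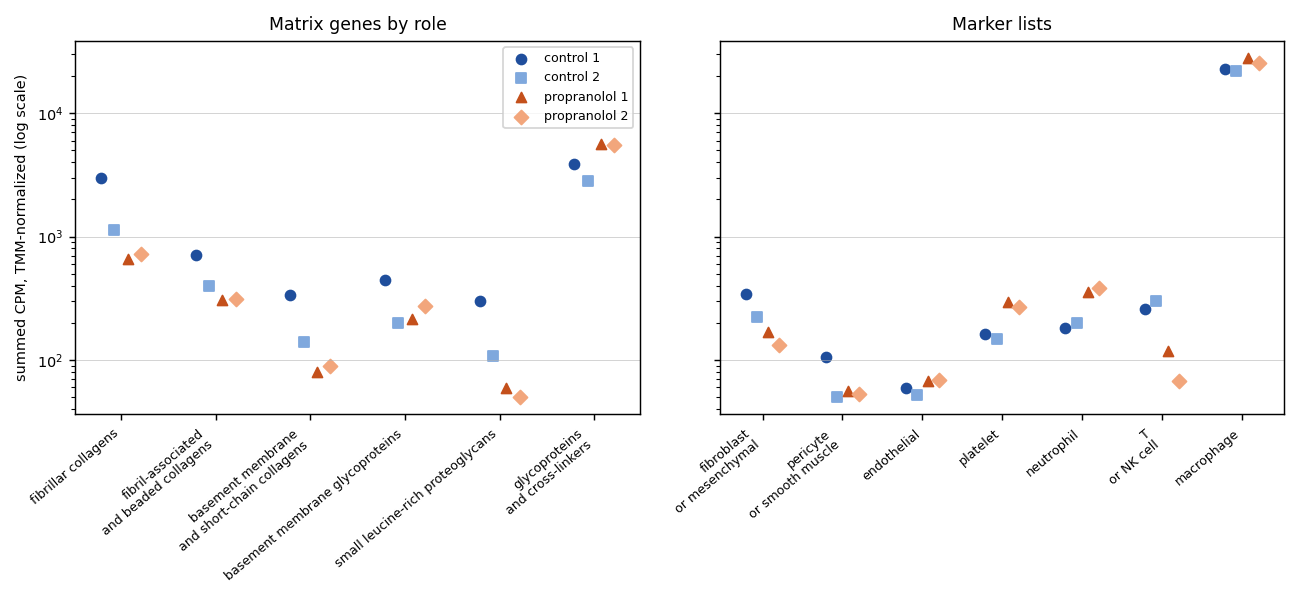
Summed CPM (log scale) of the matrix genes by role (left) and of the marker lists (right), 1 point per library. The collagen groups and the fibroblast list are highest in control replicate 1 and lowest in the propranolol libraries, whereas the glycoprotein group, which Fn1 and Thbs1 dominate, is highest in the propranolol libraries.

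Propranolol libraries held less of most matrix transcripts and more of a few. With the edgeR quasi-likelihood test, an adjusted p (Benjamini-Hochberg over 14688 genes) below 0.05 and a change of over 1.5-fold, 31 of the 39 members were lower, against 15.6% of all tested genes, and 3 were higher, against 12.2%. In either direction 34 members were called, against 27.8% of all tested genes. The 3 higher members were Fn1, Thbs1 and Nid2, and the 5 that did not pass were Col11a1, Col14a1, Lamc1, Lum and Fbln2. Of the 19 collagen genes 17 were lower and 0 higher, all 19 having a negative log2 fold change in edgeR, DESeq2 and limma-voom, and of the 20 other genes 14 were lower. The median log2 fold change was -1.50 over the members and -0.02 over all tested genes.

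The levels of both propranolol libraries lay below those of both control libraries for 34 members, against 36.9% of tested genes, and above them for 3 members, against 35.8%. Only Lamc1 and Fbln2 overlapped. The size of the decrease rested on control replicate 1. Without that library the median log2 fold change of the members was -0.62, 16 of the 31 lower members were still called lower (10.4% of the 15979 genes tested then), the other 15 kept a negative log2 fold change without passing, and all 3 higher members were still called (12.4%). With each of the other libraries left out in turn, all 31 were called lower. DESeq2 called 18 of the 31 lower, against 14% of genes. The glmTreat test of edgeR, which asks for a change beyond 1.5-fold, called 14 lower (4.63%), and a threshold of 1.5 on the log2 scale left 18 lower (4.54%).

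Across all tested genes, the log2 fold change went with the GC content of the transcript (Spearman rho 0.58), and across the 39 members the rho was 0.45, a description over genes that share the same 4 libraries. The members had a median GC content of 52.5%, against 49.6% for the tested genes. After a correction for GC content 29 of the 31 were still called lower, against 4.99% of genes, and the calls of Dcn and Postn were lost. The median of the members was then -1.63 and that of all tested genes 0.09.

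**Figure D3:**
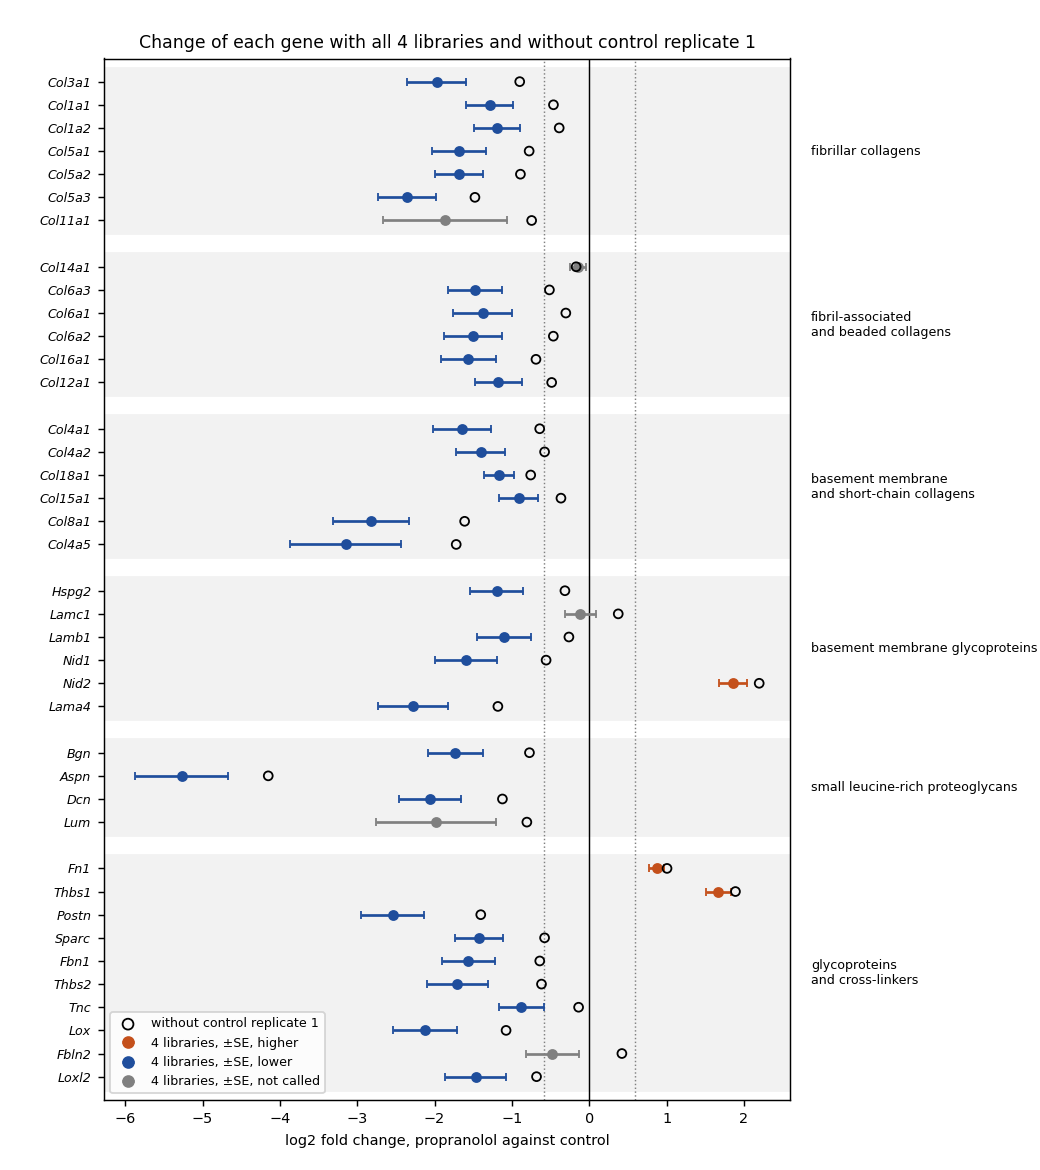
Log2 fold change of each matrix gene in propranolol against control libraries, grouped by role. Filled points with bars give the estimate ± SE with all 4 libraries, open circles the estimate without control replicate 1, and dotted lines a 1.5-fold change. Open circles lie closer to 0 for all 31 lower genes, lie farther out for Nid2, Fn1 and Thbs1, and lie on the other side of 0 for Lamc1 and Fbln2.

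Among the fibrillar collagens, the rope-forming chains of connective tissue, 6 of 7 were lower in the propranolol libraries, against 15.6% of all tested genes. Together they reached 2992 and 1125 CPM in control replicates 1 and 2, against 655 and 722 CPM under propranolol. Col1a1 (ENSMUSG00000001506.10, chr11:94936224-94953042, plus strand), the alpha 1 chain of type I collagen, was the most abundant per length. Its level was 905 and 375 CPM in the control libraries and 247 and 277 CPM in the propranolol libraries. The groups did not overlap, but control replicate 2 was nearer to the propranolol libraries than to control replicate 1. Per length it stood at 322 ± 183 TPM in control and 112 ± 12.3 TPM in propranolol libraries (SD, n = 2 each). Its log2 fold change was -1.29 (SE 0.30, adjusted p = 0.00682 in the edgeR test), and -0.46 without control replicate 1, where it was not called.

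Col1a2, the partner chain of type I collagen, went from 462 and 195 CPM to 137 and 149 CPM, a log2 fold change of -1.20 that was also lost without control replicate 1 (-0.39). With all 4 libraries, DESeq2 and glmTreat called neither Col1a1 nor Col1a2. Col3a1 (ENSMUSG00000026043.18, chr1:45311538-45349706, plus strand), the chain of the type III collagen of loose and healing tissue, was at 1294 CPM in control replicate 1, at 423 CPM in control replicate 2 and at 212 and 225 CPM in the propranolol libraries. The log2 fold change was -1.97 (SE 0.38, adjusted p = 0.00239, edgeR test), and it was still called without control replicate 1 at -0.90.

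The 3 chains of type V collagen, which regulates the diameter of type I fibrils, were all lower with and without control replicate 1. Col5a3 (ENSMUSG00000004098.7, chr9:20770050-20815067, minus strand) changed most of the fibrillar collagens. Its level was 77.2 and 30.3 CPM in control and 8.39 and 12.9 CPM in propranolol libraries, with a log2 fold change of -2.36 (SE 0.38, adjusted p = 0.000948, edgeR test) and of -1.48 without control replicate 1. Col5a1 and Col5a2 had a log2 fold change of -1.69 each, and of -0.78 and -0.89 without that library. Col11a1, a minor fibril chain best known from cartilage, reached 30 and 16 counts in control against 7 and 9 counts in propranolol libraries, and was not called (log2 fold change -1.86, SE 0.80, adjusted p = 0.0871, edgeR test, and -0.75 without that library). It was called lower without control replicate 2 (-2.48) and without propranolol replicate 2 (-2.69).

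The partner chains of type I collagen kept a narrower range in their ratio than in their levels. The TPM ratio of Col1a1 to Col1a2 was 3.71, 3.65, 3.40 and 3.52 in control replicates 1 and 2 and propranolol replicates 1 and 2. The level of the ratio depends on the gene length used, and with the longest transcript it was 1.77, 1.74, 1.62 and 1.68. Col3a1 and Col5a2 are neighbors on chromosome 1, separated by 24614 bases, and both were lower.

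**Figure D4:**
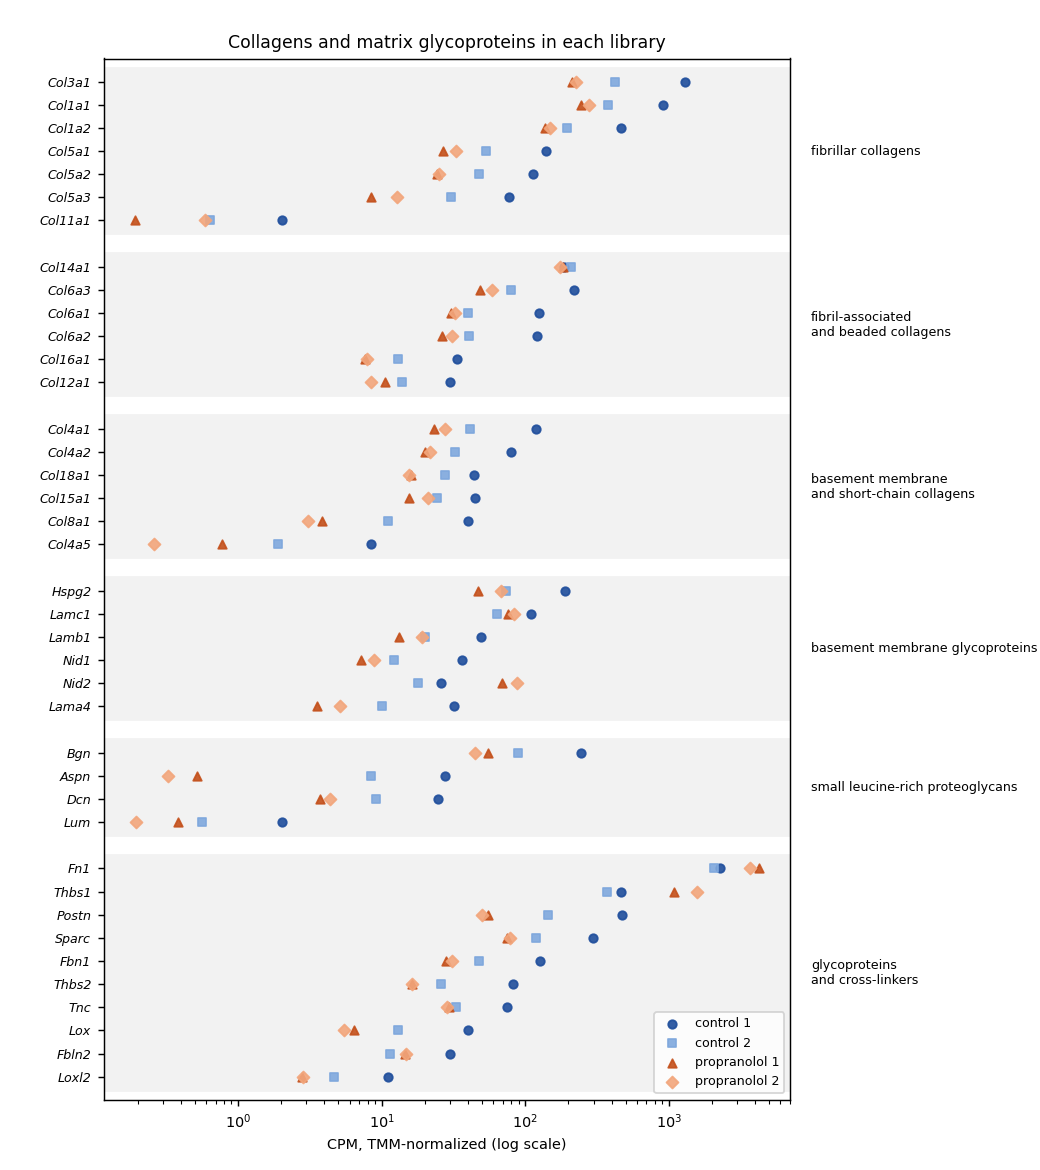
CPM (log scale) of the 39 matrix genes in each of the 4 libraries, grouped by role and ordered by the mean of the control libraries. Control replicate 1 is the rightmost point for most genes, and the propranolol libraries lie to the right of the controls only for Nid2, Fn1 and Thbs1.

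Of the fibril-associated and beaded collagens 5 of 6 were lower, against 15.6% of all tested genes. The 3 chains of type VI collagen, which forms beaded filaments around cells, moved alike. Col6a3 (ENSMUSG00000048126.16, chr1:90765923-90843971, minus strand) stood at 221 and 79.6 CPM in control and 48.7 and 58.7 CPM in propranolol libraries, with a log2 fold change of -1.48 (SE 0.35, adjusted p = 0.00758, edgeR test). Col6a2 went from 121 and 40.8 CPM to 26.2 and 31.0 CPM, a log2 fold change of -1.50 (SE 0.38, adjusted p = 0.00997, edgeR test). Col6a1 had a log2 fold change of -1.38. Without control replicate 1 the values of these 3 chains were -0.52, -0.46 and -0.30, and none was called. With all 4 libraries, DESeq2 and glmTreat also called none of these 3 chains. The TPM ratio of Col6a1 to Col6a2 lay between 1.87 and 2.22 in the 4 libraries, and between 1.18 and 1.40 with the longest transcript as length.

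Col16a1, a fibril-associated collagen, changed most of this group and was called in both comparisons, at 33.4 and 13.0 CPM in control and 7.62 and 7.86 CPM in propranolol libraries (log2 fold change -1.56, SE 0.36, adjusted p = 0.006, edgeR test, and -0.69 without control replicate 1). Col12a1, which bridges fibrils, had a log2 fold change of -1.18, and of -0.49, not called, without that library. Col14a1 (ENSMUSG00000022371.16, chr15:55307750-55520803, plus strand) was the most abundant of the group per length and the exception among the collagens. It encodes another fibril-associated chain, and its level was 185 and 210 CPM in control and 184 and 175 CPM in propranolol libraries. The propranolol libraries lay just below the controls, control replicate 1 did not stand out, and the log2 fold change was -0.14 (SE 0.10, adjusted p = 0.298, edgeR test), and -0.17 without it.

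All 6 basement membrane and short-chain collagens were lower, against 15.6% of all tested genes. Col4a1 and Col4a2 encode the chains of the type IV collagen that forms the sheet of every basement membrane. Col4a1 (ENSMUSG00000031502.11, chr8:11198423-11312826, minus strand) was the most abundant of the group per length, at 119 and 41.1 CPM in control and 23.3 and 27.6 CPM in propranolol libraries. Its log2 fold change was -1.65 (SE 0.37, adjusted p = 0.00579, edgeR test), and -0.64, still called, without control replicate 1, but DESeq2 and glmTreat called neither this gene nor Col4a2. Col4a2 (ENSMUSG00000031503.13, chr8:11312805-11449287, plus strand) went from 79.2 and 32.4 CPM to 20.2 and 21.6 CPM, a log2 fold change of -1.41 (SE 0.32, adjusted p = 0.00592, edgeR test), and -0.58, not called, without that library. The TPM ratio of Col4a1 to Col4a2 was 1.33, 1.12, 1.02 and 1.13 in control replicates 1 and 2 and propranolol replicates 1 and 2.

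The pair is arranged head to head. The genes overlap by 22 bases at their starts, and their promoter windows, from 250 bases before to 50 bases after the start in RefSeq on GRCm38.p6, share 78 bases (chr8:11312777-11312854). The windows of both genes are shown because both genes start within this stretch. Capitals mark the shared bases, which read as reverse complements in the windows, and each is given 5′ to 3′ on the strand of its gene, Col4a1 at chr8:11312777-11313076 on the minus strand and Col4a2 at chr8:11312555-11312854 on the plus strand.
Col4a1: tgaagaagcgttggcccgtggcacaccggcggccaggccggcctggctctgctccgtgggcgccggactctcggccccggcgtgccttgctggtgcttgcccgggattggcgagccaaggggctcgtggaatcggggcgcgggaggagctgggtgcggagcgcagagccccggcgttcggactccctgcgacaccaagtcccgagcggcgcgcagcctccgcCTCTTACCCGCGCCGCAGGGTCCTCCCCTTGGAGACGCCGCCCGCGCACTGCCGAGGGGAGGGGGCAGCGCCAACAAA
Col4a2: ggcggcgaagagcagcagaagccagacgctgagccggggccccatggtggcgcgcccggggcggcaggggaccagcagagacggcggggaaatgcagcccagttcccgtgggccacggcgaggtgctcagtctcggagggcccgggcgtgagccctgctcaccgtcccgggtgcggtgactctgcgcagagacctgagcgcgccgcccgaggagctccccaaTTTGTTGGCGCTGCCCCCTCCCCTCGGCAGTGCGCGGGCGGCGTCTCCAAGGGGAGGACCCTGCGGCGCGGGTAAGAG

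Col8a1, a short-chain collagen of vessel walls, fell further. Its level was 39.7 and 11.2 CPM in control and 3.85 and 3.08 CPM in propranolol libraries, with a log2 fold change of -2.83 (SE 0.49, adjusted p = 0.00143, edgeR test) and -1.61, still called, without control replicate 1. Col4a5 (ENSMUSG00000031274.16, chrX:141475385-141689234, plus strand), a type IV chain known from the kidney filter, had few counts, 126 and 48 in control against 28 and 4 in propranolol libraries. Its log2 fold change of -3.15 (SE 0.72, adjusted p = 0.00618, edgeR test) was not called without control replicate 1 (-1.72). Col15a1 and Col18a1, which carry heparan or chondroitin sulfate chains next to basement membranes, had smaller changes. Col18a1 stood at 43.8 and 27.8 CPM in control and 16.1 and 15.5 CPM in propranolol libraries and was called with (-1.17) and without control replicate 1 (-0.76). Col15a1 had a log2 fold change of -0.91, and of -0.37, not called, without that library.

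The basement membrane glycoproteins split. Of 6 genes, 4 were lower (against 15.6% of all tested genes), 1 was higher (against 12.2%) and 1 did not pass. Nid2 (ENSMUSG00000021806.4, chr14:19751265-19811787, plus strand) encodes nidogen 2, which links laminin to type IV collagen. It stood at 25.9 and 17.8 CPM in control and at 69.2 and 88.4 CPM in propranolol libraries, so both propranolol libraries were far above both controls. The log2 fold change was 1.86 (SE 0.18, adjusted p = 0.000126, edgeR test) and 2.20 without control replicate 1. Per length its place among the 39 members went from 27 in control to 7 in propranolol libraries, at 13.99 ± 3.38 and 42.99 ± 8.58 TPM (SD, n = 2 each).

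Exons of Nid2 overlap by 437 bases (8.45% of its exon bases) with those of Rtraf on the opposite strand. The counting names no strand option, so reads from that stretch cannot be assigned to either gene by strand. Rtraf stood at 62.8 and 53.3 CPM in control and 51.4 and 39.1 CPM in propranolol libraries, a log2 fold change of -0.35 in the other direction, which did not pass. Nid1, the other nidogen, moved opposite to Nid2 in the edgeR test, but was not called by DESeq2 or glmTreat. Its level was 36.3 and 12.2 CPM in control and 7.18 and 8.84 CPM in propranolol libraries, a log2 fold change of -1.59 that was not called without control replicate 1 (-0.56).

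Laminins are trimers of an alpha, a beta and a gamma chain. Lama4, the alpha chain of vessel laminins, went from 31.8 and 10.1 CPM in control to 3.55 and 5.17 CPM in propranolol libraries, the largest decrease of the group (log2 fold change -2.28, SE 0.45, adjusted p = 0.00301, edgeR test, and -1.18, still called, without control replicate 1). Lamb1, a beta chain, had a log2 fold change of -1.10, and of -0.26 without that library, where it was not called, and DESeq2, limma-voom and glmTreat did not call it either. Lamc1 (ENSMUSG00000026478.14, chr1:153218922-153332786, minus strand), a gamma chain shared by many laminins, was the most abundant of the group per length in the control libraries. Its level was 110 and 64.0 CPM in control and 76.2 and 83.5 CPM in propranolol libraries, which lay between the controls, and its log2 fold change was -0.11 (SE 0.20, adjusted p = 0.682, edgeR test). Without control replicate 1 the value was 0.37 and did not pass. The TPM ratio of Lamb1 to Lamc1 was 0.378 and 0.261 in control and 0.145 and 0.192 in propranolol libraries. With the longest transcript as length it was 0.597 and 0.412 in control and 0.229 and 0.303 in propranolol libraries. Hspg2, which encodes perlecan, the heparan sulfate proteoglycan of the basement membrane, stood at 189 and 73.7 CPM in control and 47.0 and 67.5 CPM in propranolol libraries. DESeq2 and glmTreat did not call this gene. Hspg2 had a log2 fold change of -1.20 (SE 0.34, adjusted p = 0.0179, edgeR test) and -0.31, not called, without control replicate 1.

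Small leucine-rich proteoglycans bind collagen and steer the assembly of fibrils, and 3 of 4 were lower, against 15.6% of all tested genes. Bgn (ENSMUSG00000031375.17, chrX:73483602-73495933, plus strand), which encodes biglycan, was the most abundant per length, at 247 and 89.1 CPM in control and 54.9 and 45.1 CPM in propranolol libraries. The change of Bgn was -1.73 on the log2 scale (SE 0.35, adjusted p = 0.00346, edgeR test), and -0.77 without control replicate 1. Dcn, which encodes decorin, went from 24.9 and 9.13 CPM to 3.74 and 4.39 CPM (log2 fold change -2.06, SE 0.40, adjusted p = 0.00266, edgeR test). Its value was -1.12, still called, without control replicate 1, but -0.87 and not called with the GC correction. Lum, its neighbor on chromosome 10 at a distance of 46984 bases, encodes lumican and reached 30 and 14 counts in control against 14 and 3 counts in propranolol libraries. It was not called (log2 fold change -1.98, SE 0.78, adjusted p = 0.0635, edgeR test, and -0.81 without control replicate 1), but was called lower without control replicate 2 (-2.67).

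Aspn (ENSMUSG00000021388.14, chr13:49544443-49567565, plus strand), which encodes asporin, had the largest change of all members. Its counts were 412 and 211 for control against 19 and 5 for propranolol, which is 27.8 and 8.41 CPM against 0.523 and 0.327 CPM. The propranolol libraries were far below control replicate 2 as well. The log2 fold change was -5.27 (SE 0.60, adjusted p = 0.000204, edgeR test), -4.15 without control replicate 1 and -3.70 with the GC correction, all of them called. Its transcript had the lowest GC content of the members, 34.4%. Aspn lies between 2 further matrix genes of the same strand, Ecm2 at a distance of 11653 bases and Ogn at 40480 bases. Both neighbors, which encode extracellular matrix protein 2 and osteoglycin, were lower too, with log2 fold changes of -1.97 (SE 0.70) and -3.03 (SE 0.75). Their counts were low. Ecm2 had 17 and 27 counts in control and 6 and 7 counts in propranolol libraries. Ogn had 127 and 74 counts against 40 and 1, so its propranolol replicates were 2.96 apart on the log2 CPM scale.

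Among the glycoproteins and cross-linking enzymes 7 of 10 were lower (against 15.6% of all tested genes), 2 were higher (against 12.2%) and 1 did not pass. The summed level of these 10 genes was 3882 and 2837 CPM in control and 5587 and 5500 CPM in propranolol libraries, most of it from Fn1 and Thbs1. Fn1 (ENSMUSG00000026193.15, chr1:71585520-71653200, minus strand) encodes fibronectin, the adhesive glycoprotein on which cells first lay down collagen, and was the most abundant member per length in both groups. Its level was 2284 and 2062 CPM in control and 4265 and 3700 CPM in propranolol libraries, and the control replicates lay close together. Per length that was 617 ± 32.0 TPM in control and 958 ± 69.5 TPM in propranolol libraries (SD, n = 2 each). The log2 fold change was 0.87 (SE 0.10, adjusted p = 0.000196, edgeR test) and 1.01 without control replicate 1.

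Thbs1 (ENSMUSG00000040152.8, chr2:118111876-118127133, plus strand) encodes thrombospondin 1, an antiangiogenic glycoprotein that also activates latent TGF beta. It stood at 464 and 374 CPM in control and 1093 and 1572 CPM in propranolol libraries, above both controls in each. The log2 fold change was 1.67 (SE 0.16, adjusted p = 0.000125, edgeR test) and 1.89 without control replicate 1. Platelets store thrombospondin 1, and the summed platelet markers, given above and nearly all Pf4, were higher in the same libraries. Of the 5 tested, Pf4 and Ppbp were higher, the latter at 1.62 and 1.75 CPM in control and 6.19 and 10.1 CPM in propranolol libraries. Itga2b (log2 fold change -0.52), Gp1ba (0.13) and Treml1 (0.67) did not pass, and Gp1bb had 0 counts in every library. The part of platelet RNA in the level of Thbs1 was not tested. Thbs2, its paralog, moved the other way, at 81.9 and 26.1 CPM in control and 16.4 and 16.3 CPM in propranolol libraries. Its log2 fold change was -1.70 (SE 0.40, adjusted p = 0.00685, edgeR test) and -0.62, still called, without control replicate 1, but it was not called by DESeq2 or glmTreat.

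Postn (ENSMUSG00000027750.16, chr3:54361109-54391037, plus strand) encodes periostin, a matricellular protein of activated fibroblasts, and had the largest decrease of this group without the GC correction. It stood at 473 and 145 CPM in control and 55.4 and 50.1 CPM in propranolol libraries. The propranolol replicates were nearly equal, and the control replicates were 1.70 apart on the log2 CPM scale. The log2 fold change was -2.54 (SE 0.41, adjusted p = 0.001, edgeR test) and -1.40, still called, without control replicate 1, but -1.21 and not called with the GC correction. Its transcript had a GC content of 36.3%.

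Sparc, which encodes the collagen chaperone osteonectin, went from 296 and 119 CPM to 75.1 and 78.9 CPM, a log2 fold change of -1.43 that was not called without control replicate 1 (-0.58). Fbn1, the fibrillin of elastic microfibrils, had a log2 fold change of -1.56, and of -0.64, still called, without that library. DESeq2 and glmTreat called Fbn1 but not Sparc. Tnc, which encodes tenascin C, had the smallest decrease that passed, -0.88 in the edgeR test. It was not called without control replicate 1 (-0.14), nor by DESeq2, limma-voom or glmTreat. Fbln2, which encodes fibulin 2, was at 30.2 and 11.4 CPM in control and at 14.7 CPM in both propranolol libraries, between the controls. Its log2 fold change of -0.48 did not pass. Without control replicate 1 it was 0.42, and without control replicate 2 it was -1.02 and called lower.

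The enzymes Lox and Loxl2 oxidize lysines of collagen so that its chains can be cross-linked. Lox went from 39.8 and 13.1 CPM to 6.38 and 5.50 CPM (log2 fold change -2.12, SE 0.42, adjusted p = 0.00276, edgeR test) and was called without control replicate 1 at -1.08. Loxl2 was lower by -1.47, and at -0.68 was not called without that library.

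The set of RefSeq promoter windows used here held windows for 26 of the 39 members, none of them among the 3 higher members. Those of Aspn (chr13:49544193-49544492, plus strand) and Postn (chr3:54360857-54361156, plus strand, GRCm38.p6) are shown because these genes had the largest decreases of their groups without the GC correction. Capitals mark TATAAA, the core of the TATA box, on either strand, so that it reads TTTATA where it lies on the other strand. The Postn window shown was picked because it holds TATAAA. Another Postn window, at chr3:54359017-54359316, had no match of TATAAA. In the Postn window shown the match begins 26 bases before the start, and in the Aspn window the matches begin 207 and 178 bases before it.
Aspn: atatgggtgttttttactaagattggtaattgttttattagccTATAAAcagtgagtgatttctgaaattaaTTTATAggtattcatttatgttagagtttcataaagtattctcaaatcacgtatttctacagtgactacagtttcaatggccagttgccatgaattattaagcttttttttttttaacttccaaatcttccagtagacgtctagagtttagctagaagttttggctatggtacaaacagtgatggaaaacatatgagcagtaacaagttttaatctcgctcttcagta
Postn: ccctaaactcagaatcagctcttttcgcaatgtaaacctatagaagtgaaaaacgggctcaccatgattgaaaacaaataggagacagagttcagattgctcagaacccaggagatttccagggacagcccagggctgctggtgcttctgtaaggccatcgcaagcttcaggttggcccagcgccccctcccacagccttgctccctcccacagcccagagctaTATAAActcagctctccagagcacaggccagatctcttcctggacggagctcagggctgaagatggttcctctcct

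TATAAA was found on either strand in a window of 5 of the 26 members (19.2%), which were Aspn, Col3a1, Postn, Thbs2 and Tnc, against 15.7% of the 27025 genes with a window. The GC box letters GGGCGG were found for 18 members (69.2%), against 38.2% of genes, and CCAAT for 13 of the 26, against 41.1%. The letters of the cAMP response element, TGACGTCA, the element at which factors downstream of beta-adrenergic receptors bind, were found for 0 of 26 members and 2.03% of genes. TGANTCA, the AP-1 element, was found for 1 member, Col6a1, against 8.97% of genes. These matches describe the letters in windows of 300 bases and say nothing of binding.

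The enzymes and chaperones that make collagen did not move as 1 group. Of 28 genes 24 were tested, 8 were lower (against 15.6% of all tested genes) and 4 were higher (against 12.2%), with a median log2 fold change of -0.31. Plod2, which hydroxylates lysines of the collagen telopeptides, was at 19.4 and 8.61 CPM in control and 2.23 and 1.18 CPM in propranolol libraries (log2 fold change -2.94, SE 0.42, adjusted p = 0.000545, edgeR test). The other lysyl hydroxylases moved the other way. Plod1 stood at 239 and 228 CPM in control and 463 and 468 CPM in propranolol libraries, 1.99-fold higher, and Plod3 had a log2 fold change of 0.79. The galactosyltransferase Colgalt1 (0.63) and Crtap (0.61), a partner of prolyl 3-hydroxylase, were the other higher genes. P3h4 (-1.57), Loxl1 (-1.28) and Fkbp10 (-1.19) were lower, as were Serpinh1, the collagen chaperone of the endoplasmic reticulum (117, 49.3, 36.7 and 39.9 CPM), Adamts14, Pcolce and Bmp1. These log2 fold changes use all 4 libraries. Loxl1 stood at 49.3 and 17.6 CPM in control and 12.6 and 14.8 CPM in propranolol libraries. Fkbp10 stood at 19.4 and 7.57 CPM against 6.19 and 5.30 CPM. In both genes control replicate 2 was nearer to the propranolol libraries than to control replicate 1. P3h4 and Fkbp10 lie 860 bases apart on chromosome 11. Without control replicate 1, 2 of the 24 were lower, against 10.4% of genes, and 5 higher, against 12.4%.

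Of 54 further matrix genes 43 were tested, with 17 lower (15.6% of all tested genes), 6 higher (12.2%) and a median log2 fold change of -0.77. Lama2, a laminin alpha chain of mesenchymal basement membranes, had 13.1 and 4.15 CPM in control and 0.440 and 0.655 CPM in propranolol libraries (log2 fold change -4.02, SE 0.58, adjusted p = 0.000598, edgeR test). Among the genes that passed, the next largest decreases were those of Ogn (-3.03), of Mfap4 (-2.62), a microfibril protein, and of Thbs4 (-2.41). Ogn rested on few counts, 40 and 1 in propranolol replicates 1 and 2. Mfap4 stood at 13.4 and 4.23 CPM in control and 1.65 and 1.05 CPM in propranolol libraries. Thbs4 stood at 27.0 and 8.25 CPM against 3.11 and 3.47 CPM, so control replicate 1 was far above control replicate 2 in both. The 4 largest increases among the genes that passed were those of Spp1, which encodes osteopontin (207, 166, 588 and 515 CPM, log2 fold change 1.57), Emilin2 (0.98), Ecm1 (0.84) and Tgfbi (0.72). Tgfbi, a collagen-binding protein that macrophages secrete, was the most abundant of the list per length, at 2639 and 2744 CPM in control and 4539 and 4349 CPM in propranolol libraries. In Spp1 and Tgfbi both propranolol libraries were above both controls and the control replicates lay close together. Of the 44 tested without control replicate 1, 8 were lower (10.4% of genes) and 8 higher (12.4%).

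Of the 31 receptors and uptake receptors of matrix proteins 29 were tested, with 7 lower, against 15.6% of all tested genes, and 3 higher, against 12.2%. Stab1, a scavenger receptor that takes up Sparc, rose from 2650 and 2889 CPM in control to 6322 and 7970 CPM in propranolol libraries (log2 fold change 1.37, SE 0.11, adjusted p = 0.000103, edgeR test), and was the most abundant of the list per length. Sdc1 (0.76) and Itgb5 (0.66) were the other higher genes. The largest decreases among the genes that passed were those of Sdc2 (-2.31), of the collagen receptor tyrosine kinase Ddr2 (-1.94), of the collagen-binding integrin chain Itga1 (-1.73) and of the collagen endocytosis receptor Mrc2 (-1.57). Itgb1, the beta chain of the collagen-binding integrins, was at 654 and 573 CPM in control and 387 and 333 CPM in propranolol libraries, a log2 fold change of -0.77. With control replicate 1 left out, 6 of the 29 were lower (10.4% of genes) and 3 higher (12.4%).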

How the data were processed

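The values used are raw counts per gene as the authors deposited them, for 2 control (labelled vehicle) and 2 propranolol libraries, with 0 columns of other samples. Per the study's methods, STAR placed the reads on mm10, SAMtools removed those of low mapping quality, and featureCounts tallied read pairs over the exons of GENCODE genes. The release and a strand option are not given in the sources used here. Columns were matched to libraries by the number in the labels.

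R 4.3.3 with edgeR 4.0.16 was used. Genes without counts (25803) and genes below the filterByExpr minimum of 10 were left out, TMM factors were 1.08, 1.09, 0.914 and 0.931, and groups were compared with the quasi-likelihood test without covariates. SEs derive from the coefficient and the F statistic. Log2 CPM used a prior count of 2, and TPM the length of all exons in GENCODE M21 (54079 genes matched, 67 did not). Replicates differed by more than sampling noise (chi-square per degree of freedom 11.8 and 15.1). Low genes are limited by depth, and counting error is only part of the spread.

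The members, lists and tests were chosen with earlier results of these data known. Every member is named. Full values are given, per role, for the most abundant gene, the genes with the largest changes and all that were higher, and in related lists for up to 4 changed genes a direction. Motifs and shown windows were chosen after the values were seen. Alternatives were DESeq2 1.42.0, limma-voom 3.58.1, glmTreat, DESeq2 size factors, upper-quartile factors, other filters and thresholds, each library left out, the replicate number as a block, and a GC correction (natural spline with 5 degrees of freedom, through offsets). Exact permutation of 2 libraries against 2 cannot give a p below 0.333. The fits were tested on simulated data, but the outcome is not given here.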

Additional observations from a re-analysis of the deposited data

How the results depend on the processing

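Of all tested genes, 4084 were called in the main test. The count was 1093 with glmTreat, 1855 with the GC correction, 2128 with the replicate block and the GC correction together, 6204 without a fold threshold and 728 with a log2 fold change above 1.5, and lay between 3615 and 4329 with a library left out. Of the members, 34 were called. The count was 21 with DESeq2, 17 with glmTreat and 20 with a log2 fold change above 1.5, and lay between 19 (without control replicate 1) and 37 with a library left out. Lower members numbered 18, 14 and 18 under the same 3 alternatives and between 16 and 34 with a library left out, and the 3 higher members were called with each library left out. Lamc1 and Fbln2 changed sign without control replicate 1, with log2 fold changes between -0.44 and 0.37 and between -1.02 and 0.42 over the libraries left out. DESeq2 size factors and upper-quartile factors changed no call and no direction of a member. Of the 96 related genes tested, 45 were called in the main test, against 27.8% of all tested genes. Among the tested related genes, 15 were called with glmTreat and 18 with a log2 fold change above 1.5, against 1093 and 728 of all tested genes. With the longest transcript as length, the mean ratio over the libraries was 1.70 for Col1a1 to Col1a2, 1.26 for Col6a1 to Col6a2, 0.728 for Col6a3 to Col6a1 and 0.385 for Lamb1 to Lamc1. The causes of these shifts were not tested, except that stricter thresholds leave fewer genes.

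The groups share only replicate numbers, and nothing says that a number marks a shared batch. The differences between replicates 1 and 2 correlated across genes with a Pearson r of 0.17 between the groups. With the replicate number as a block 4362 genes were called, 32 members were lower, including all 31 of the main test, and 3 were higher. With the block and the GC correction together Postn was called lower (-1.01) and Dcn was not (-0.79). The additional lower member with the block alone was Lum, which was also called with no filter and without control replicate 2. Col11a1 and Lum had the lowest depth of the members, at most 30 counts in a library.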
